A study of Mus musculus with 7 samples.

Results

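The genes described here build fatty acids and cholesterol, and they were measured in brown fat of newborn mice labelled as knockout or wild type for glycerol kinase. They were taken from a list of 41 genes, 18 of a fatty acid arm and 23 of a sterol arm, and each gene was read by the probe set with the brightest mean signal over all arrays. A probe set of 1 gene symbol was found for 40 of the 41 genes, of 18193 genes so measured in all, and all 40 passed the filter on low signal, as did 13102 genes. Acat2, the remaining gene, is not analysed here, because no probe set used here is paired with it alone.

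The KO samples were labelled as brown fat of male C57BL/6J mice aged 3 days with a knockout (KO) of the Gyk gene, which encodes glycerol kinase, and numbered 4 (replicates 1 to 4). Samples labelled as wild-type males of the same strain and age numbered 3 (replicates 1, 3 and 4) and served as the control. Total RNA of brown fat had been hybridised at 1 sample per array, and neither how the KO allele was made nor whether a sample pooled animals is given in the sources used here. Glycerol kinase turns glycerol into glycerol 3-phosphate, the backbone onto which newly made fatty acids are loaded.

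Fatty acid synthesis starts in the cytosol, where ATP citrate lyase and acetyl-CoA synthetase supply acetyl-CoA, acetyl-CoA carboxylase makes malonyl-CoA, and fatty acid synthase builds palmitate, which elongases and desaturases then remodel. Sterol synthesis condenses acetyl-CoA to mevalonate, then to squalene, and closes squalene into the sterol rings. Both arms are driven by the SREBP transcription factors, which the escort protein SCAP releases for processing and the INSIG proteins hold back. Brown fat both makes and burns fatty acids, and malonyl-CoA is also the inhibitor of their entry into mitochondria.

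The array labelled KO replicate 2 stood apart before any gene was compared. On the first principal component, with 35.3% of the variance, the other KO arrays scored between -35.7 and -33.4, the wild-type arrays between 23 and 33.3, and this array 13.8. Its closest array was wild-type replicate 1 (correlation 0.975). Xist, the noncoding RNA that silences an X chromosome, read 2757 on it and at most 273 on the other 6 arrays by the same probe set, although all samples were labelled male. Calls are therefore given with and without this array. Nearness to wild type was one reason to single it out, so leaving it out tends to widen differences between the genotypes. The share of all genes that passed went from 1.85% to 8.43% without it. Calls gained that way are therefore not further support. The second component (16.4%) separated the samples by run of accession numbers, called deposit block 1 (wild-type replicate 1, KO replicates 1 and 2) and deposit block 2 (the rest). Median signal ran from 131 to 154 over the arrays, and 3' over 5' signal of actin from 1.14 to 1.39. No probe set is paired with Gyk in the probe table, so the genotypes rest on the labels. Adipoq and Ucp1, a fat cell and a brown fat marker, read at least 21189 and 26887 on every array.

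The start regions of 6 of these genes are shown first, because they carry letters that members of both arms share. Each window holds the 250 bases before a RefSeq start (build GRCm38.p6), read 5′ to 3′ on the strand of the gene. Capitals mark the CCAAT box, searched as CCAAT on both strands (ATTGG on the printed one), and 1 sterol regulatory element, searched as TCACNCCAC on both strands. The windows lie at chr5:114165268-114165517 (plus strand) for Acacb, chr11:120824548-120824797 (minus strand) for Fasn, chr2:155517793-155518042 (plus strand) for Acss2, chr13:119690101-119690350 (plus strand) for Hmgcs1, chr5:114444019-114444268 (plus strand) for Mvk and chr13:8885356-8885605 (plus strand) for Idi1. Those of Acacb and Fasn, and the last bases of that of Mvk, lie inside the annotated span of the gene, which has a further start upstream.
Acacb: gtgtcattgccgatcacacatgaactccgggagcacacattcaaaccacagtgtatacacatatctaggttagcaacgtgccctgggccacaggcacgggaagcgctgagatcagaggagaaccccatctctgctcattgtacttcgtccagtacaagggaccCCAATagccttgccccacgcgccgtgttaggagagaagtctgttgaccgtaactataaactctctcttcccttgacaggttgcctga
Fasn: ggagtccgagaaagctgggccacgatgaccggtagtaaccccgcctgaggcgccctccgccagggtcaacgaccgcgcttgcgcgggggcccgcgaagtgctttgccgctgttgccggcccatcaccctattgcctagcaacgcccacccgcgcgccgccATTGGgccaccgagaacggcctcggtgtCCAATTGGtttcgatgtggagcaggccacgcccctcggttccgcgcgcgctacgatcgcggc
Acss2: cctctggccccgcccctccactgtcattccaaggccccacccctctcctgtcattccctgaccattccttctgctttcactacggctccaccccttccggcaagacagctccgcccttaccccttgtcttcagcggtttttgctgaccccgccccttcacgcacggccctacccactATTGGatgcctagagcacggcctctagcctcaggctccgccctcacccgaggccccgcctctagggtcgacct
Hmgcs1: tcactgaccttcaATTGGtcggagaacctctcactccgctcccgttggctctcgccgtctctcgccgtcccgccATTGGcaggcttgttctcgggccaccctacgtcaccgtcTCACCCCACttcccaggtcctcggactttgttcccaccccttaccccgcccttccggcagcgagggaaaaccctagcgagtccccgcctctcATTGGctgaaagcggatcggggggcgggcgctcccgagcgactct
Mvk: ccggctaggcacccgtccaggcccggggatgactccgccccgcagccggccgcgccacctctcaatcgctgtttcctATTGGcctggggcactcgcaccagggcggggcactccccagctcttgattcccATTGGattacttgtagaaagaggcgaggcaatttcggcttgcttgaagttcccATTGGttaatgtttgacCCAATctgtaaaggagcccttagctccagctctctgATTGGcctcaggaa
Idi1: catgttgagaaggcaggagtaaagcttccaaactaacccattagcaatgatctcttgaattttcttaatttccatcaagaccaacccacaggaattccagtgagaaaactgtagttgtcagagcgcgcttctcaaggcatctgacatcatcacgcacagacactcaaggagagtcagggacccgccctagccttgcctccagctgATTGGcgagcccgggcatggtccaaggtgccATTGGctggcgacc

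Of the 41 genes, 33 matched the promoter table, with 44 windows, since some genes have several starts. A CCAAT box, the site bound by NF-Y, was found in 63.6% of these windows (57.9% of 19 in the fatty acid arm and 68% of 25 in the sterol arm) and in 33.8% of all 32851 windows. The GC box GGGCGG, a site of Sp1, was found in 68.2% of the members' windows and 32.7% of all, and the E-box CACGTG in 15.9% and 6.02%. TCACNCCAC was found in 2 of the 44 windows, those of Hmgcs1 and of 1 start of Mlxipl, and in 1.05% of all. In the window of Hmgcs1 it began 137 bases before the start, among 3 CCAAT boxes. Mvk had 5 CCAAT boxes, and in Fasn a pair of them overlapped. A match describes letters only, and the members shown include genes that were higher and genes that were lower in KO.

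Most lipid synthesis genes read lower in KO brown fat than in wild type, by small amounts, and a single one passed the test. Of the 40 tested members, 29 had a negative log2 difference (72.5%, against 51.5% of all tested genes). The members were chosen with earlier results of these data known, so the shares given here describe them and are not a test. Log2 differences are KO minus wild type on the scale log2(signal + 30.6), which understates changes of dim probe sets. Sqle fell and 0 members rose (limma, Benjamini-Hochberg adjusted p under 0.05 over 27022 probe sets), where 0.71% of all tested genes fell and 1.14% rose. Of all tested probe sets 1.59% passed, and 4465 had an unadjusted p under 0.05. In 9 members every KO array lay below every wild-type array (22.5%, against 8.37% of all genes), and in 2 members every KO array lay above (5%, against 8.33%), where 16.7% of all genes did either. In bulk tissue, fewer cells of a type and less RNA per cell cannot be told apart.

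Without the array labelled KO replicate 2, 7 members passed, where 8.43% of all genes did: 6 fell (5.02% of all genes fell) and 1 rose (3.4% of all genes rose). The fallers were Fasn, Scd2 and Acss2 of the fatty acid arm and Mvk, Idi1 and Sqle of the sterol arm, and the riser was Acacb. With the deposit block as a covariate and all arrays, Fasn and Sqle fell (1.24% of all genes fell) and Acacb rose (1.41% of all genes rose, and 2.65% passed in all). Within deposit block 2 alone, with 2 KO and 2 wild-type arrays, Fasn passed, lower in KO, and no other member did; 1.53% of all genes fell there, 1.43% rose and 2.96% passed in all. Nothing in the labels says that replicates are separate animals, so the p-values reflect only how these samples spread, which may be technical.

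**Figure D1:**
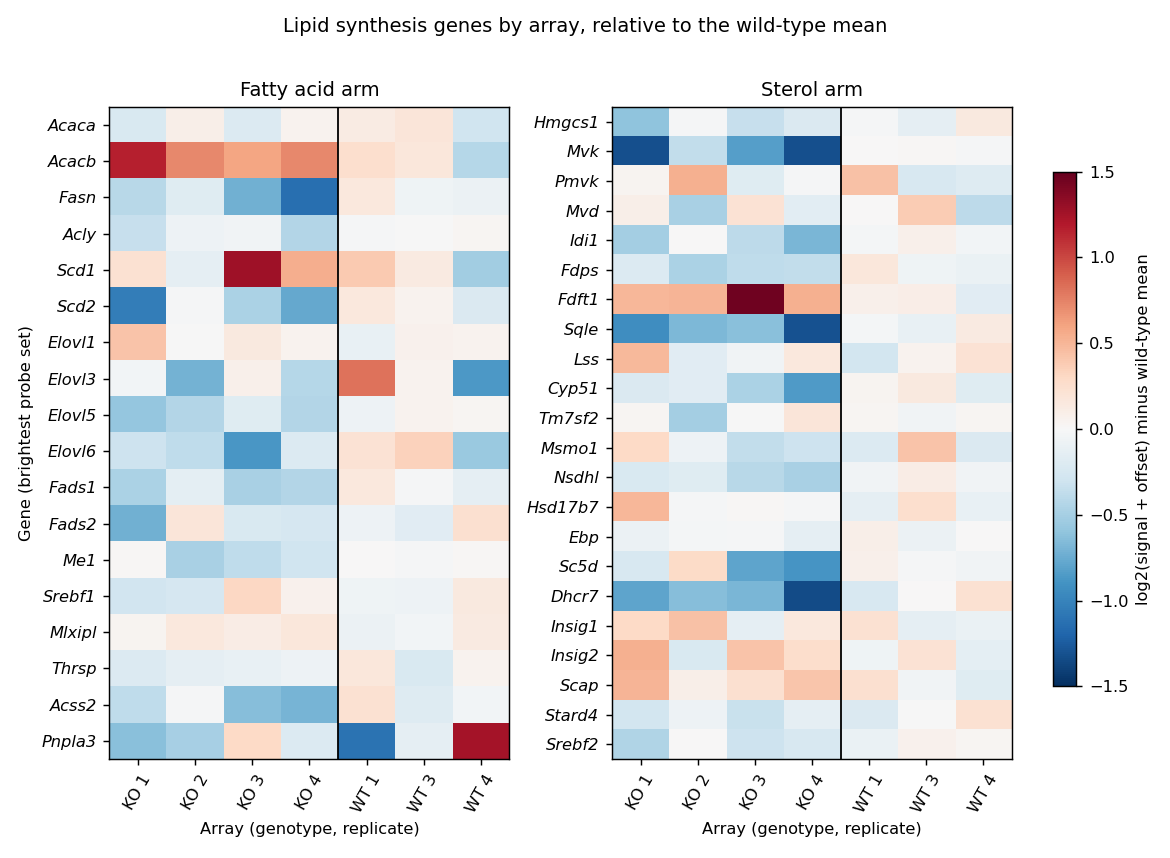
Colour gives log2(signal + 30.6) minus the wild-type mean for the brightest probe set of each of the 40 measured genes (rows) on each array (columns, KO left of wild type). Blue dominates the KO columns in both arms, while Acacb and Fdft1 are red on all 4 KO arrays. Scap and Mlxipl also lie above the wild-type mean on all 4, by less.

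Acss2, Acly and Me1, which supply acetyl-CoA or NADPH for synthesis, had negative log2 differences, and none of them passed with all arrays. Acss2, the cytosolic acetyl-CoA synthetase that activates acetate, read 1586, 2061, 1322 and 1271 in KO replicates 1 to 4, against 2454, 1821 and 2017 in wild-type replicates 1, 3 and 4 (log2 difference -0.44 ± 0.17, SE, adjusted p = 0.238). Its groups overlapped through KO replicate 2, without which it fell (-0.58, adjusted p = 0.0358). A further tested probe set of Acss2 gave -0.46 and the dimmest -0.06. Acly, ATP citrate lyase, which splits exported citrate, averaged 4041 ± 536 in KO and 4721 ± 71.4 in wild type (SD, n = 4 and 3). The groups of Acly did not overlap, but the difference did not pass (log2 difference -0.23 ± 0.12, SE, adjusted p = 0.36). Me1, malic enzyme, a source of NADPH for synthesis, had a log2 difference of -0.29 with overlapping groups.

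The acetyl-CoA carboxylases, which make malonyl-CoA, had unlike values. Acacb, the carboxylase at the mitochondrial outer membrane, read 10248, 7502, 6871 and 7511 in KO replicates 1 to 4, against 5456, 5117 and 3393 in wild-type replicates 1, 3 and 4. All KO arrays lay above all wild-type arrays, 1.74-fold higher on the fitted scale (log2 difference 0.80 ± 0.18, SE, adjusted p = 0.0572), and Acacb passed without KO replicate 2 (0.82, adjusted p = 0.0327). Acaca, the cytosolic carboxylase of synthesis, averaged 1594 ± 186 in KO and 1689 ± 296 in wild type, with a log2 difference of -0.07 and overlapping groups. The log2 ratio of Acacb to Acaca, set to the wild-type mean, was 0.63 to 1.39 on the KO arrays and -0.12 to 0.13 on the wild-type arrays. This ratio shows unequal change within arrays and not that Acaca stayed the same. Acacb passed in 6 of 20 alternative fits that have a spread within both groups or pool it, with adjusted p between 0.0106 and 0.191. Those without KO replicate 2 are among the 6.

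Fasn, fatty acid synthase, read 3777, 4446, 3054 and 2281 in KO replicates 1 to 4, against 5614, 4836 and 4736 in wild-type replicates 1, 3 and 4. Each KO array was below the lowest wild-type array, and KO replicate 2 was the highest of the KO arrays. The difference was 1.53-fold and did not pass with all arrays (log2 difference -0.61 ± 0.19, SE, adjusted p = 0.141), but did without KO replicate 2 (-0.76, adjusted p = 0.0247), after adjusting for deposit block (adjusted p = 0.0368) and within deposit block 2 (adjusted p = 0.0352). Fasn has 1 probe set in the table, so no further probe set bears on it.

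The desaturases did not share a direction. Scd2, a stearoyl-CoA desaturase that places the first double bond, read 819, 1683, 1219 and 995 in KO replicates 1 to 4, against 1916, 1779 and 1463 in wild-type replicates 1, 3 and 4 (log2 difference -0.57 ± 0.21, SE, adjusted p = 0.202). It fell without KO replicate 2 (-0.76, adjusted p = 0.0212), the array whose value lay inside the wild-type range. On a dimmer probe set Scd2 was at -0.54, and KO replicate 2 (620) lay among the other KO arrays (469.7 to 640.5). On the dimmest Scd2 was at -0.19. Scd2 passed on neither of these, with or without KO replicate 2 (adjusted p = 0.0543 and 0.745 without it). Scd1, its close relative and the main form of adult fat and liver, read 6429, 5007, 13259 and 7999 in KO replicates 1 to 4, against 7193, 6014 and 3795 in wild-type replicates 1, 3 and 4. Its difference had the opposite sign but did not pass (log2 difference 0.48 ± 0.30, SE, adjusted p = 0.474), and it was 1.10 ± 0.27 within deposit block 2 (adjusted p = 0.0805) and -0.34 within deposit block 1, which holds 1 wild-type array. The dimmer probe set of Scd1 gave 0.88 (adjusted p = 0.21), and 0.0195 was its adjusted p without KO replicate 2. The log2 ratio of Scd1 to Scd2, set to the wild-type mean, was 1.26, 1.75 and 1.31 for KO replicates 1, 3 and 4. KO replicate 2 had -0.11, inside the range of the wild-type arrays (-0.31 to 0.23).

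Fads1 and Fads2 are the front-end desaturases of polyunsaturated fatty acids. Fads1 read 468, 594, 465 and 479.9 in KO replicates 1 to 4, against 744, 653 and 599.5 in wild-type replicates 1, 3 and 4, with no overlap between groups (log2 difference -0.39 ± 0.14, SE, adjusted p = 0.197), but its dimmer probe set gave 0.09. Fads2 had a log2 difference of -0.25 on its brightest probe set and -0.57 on a dimmer one, neither passing.

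Among the elongases, Elovl5, which extends polyunsaturated chains, read 2678, 2959, 3522 and 2945 in KO replicates 1 to 4, against 3784, 4146 and 4102 in wild-type replicates 1, 3 and 4. The groups did not overlap, and neither of its probe sets passed (log2 difference -0.41 ± 0.11, SE, adjusted p = 0.102, and -0.43, adjusted p = 0.0732). The second passed without KO replicate 2 (adjusted p = 0.0475). Elovl6, which extends palmitate to stearate, averaged 2903 ± 551 in KO and 4032 ± 1237 in wild type, with log2 differences of -0.44, -0.47 and -0.22 on its tested probe sets. Elovl1, which makes very long saturated chains, was at 0.15.

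Elovl3, the elongase induced in brown fat by cold, ranged over 816 to 1421 in KO and 729.6 to 2393 in wild type. Its wild-type spread covered every KO value, and its log2 difference of -0.28 turned to 0.13 without wild-type replicate 1. The lipid droplet protein gene Pnpla3, an SREBP target, ranged over 819 to 1590.1 in KO and 581 to 3083 in wild type, also with every KO value inside the wild-type spread.

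The regulators of the fatty acid arm showed little difference. Srebf1, the SREBP of fatty acid genes, averaged 6348 ± 1280.4 in KO and 6468 ± 592 in wild type (log2 difference -0.04 ± 0.15, SE, adjusted p = 0.923). Mlxipl, the carbohydrate response factor ChREBP, averaged 3959.6 ± 157 in KO and 3652 ± 308 in wild type (log2 difference 0.12). Thrsp, Spot 14, a partner protein of lipogenesis, averaged 17378 ± 638 in KO and 19171 ± 2683 in wild type (log2 difference -0.13). In each of these genes the groups overlapped, and 0 of their tested probe sets passed.

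**Figure D2:**
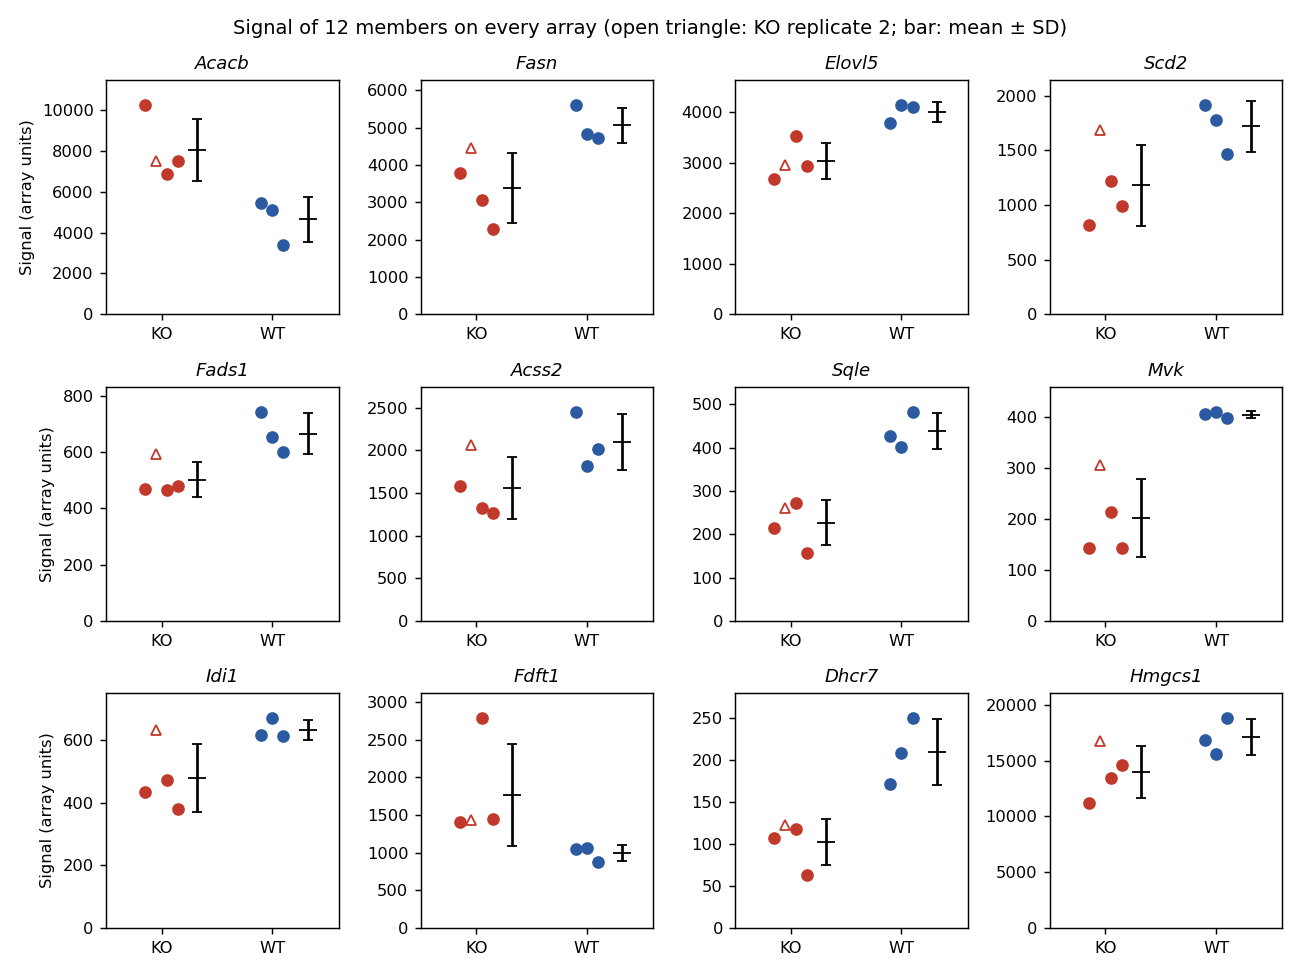
Signal in array units (y axis, from 0) of the brightest probe set of 12 genes on the 4 KO arrays (red, open triangle for KO replicate 2) and the 3 wild-type arrays (blue), with mean and SD beside each group. The open triangle lies near the wild-type points in Scd2, Acss2, Idi1 and Hmgcs1, and among the other KO points in Sqle and Dhcr7.

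In the sterol arm, the brightest probe sets of the first 2 enzymes measured had negative log2 differences, which did not pass with all arrays. Hmgcs1, the HMG-CoA synthase that enters the mevalonate route, read 11211, 16793, 13412 and 14597 in KO replicates 1 to 4, against 16886, 15559.6 and 18776 in wild-type replicates 1, 3 and 4 (log2 difference -0.30 ± 0.14, SE, adjusted p = 0.309). Its other 4 probe sets gave log2 differences between -0.55 and -0.20, of which 3 passed without KO replicate 2 (adjusted p = 0.0143, 0.0183 and 0.0215). On its brightest probe set the groups overlapped through KO replicate 2.

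Mvk, mevalonate kinase, read 144, 307, 214 and 144 in KO replicates 1 to 4, against 406, 411 and 398 in wild-type replicates 1, 3 and 4. Every KO array was below every wild-type array, KO replicate 2 least so. Mvk was 1.95-fold lower and did not pass with all arrays (log2 difference -0.96 ± 0.23, SE, adjusted p = 0.0682), but fell without KO replicate 2 (-1.16, adjusted p = 0.00598). Mvk also fell under array weights, which keep that array but can count it for less (-1.03, adjusted p = 0.0215). Its second probe set gave -0.82 (adjusted p = 0.142, and 0.0109 without that array).

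The next steps of the mevalonate route were near 0: Pmvk, the following kinase, had a log2 difference of 0.10 and Mvd, the decarboxylase, one of -0.08. Idi1, the isopentenyl diphosphate isomerase, read 435, 633, 474 and 380.4 in KO replicates 1 to 4, against 617, 669.9 and 613 in wild-type replicates 1, 3 and 4 (log2 difference -0.40 ± 0.17, SE, adjusted p = 0.264). It fell without KO replicate 2 (-0.53, adjusted p = 0.0434), and its second probe set gave -0.67 (adjusted p = 0.225, and 0.0162 without that array). Fdps, farnesyl diphosphate synthase, ran from 719 to 869.8 in KO and 938 to 1136 in wild type, without overlap, and did not pass (log2 difference -0.36 ± 0.12, SE, adjusted p = 0.179).

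The steps at squalene had log2 differences of opposite sign. Sqle, squalene epoxidase, often the slow step of the route after mevalonate, read 215, 261, 272 and 158 in KO replicates 1 to 4, against 428, 402 and 483 in wild-type replicates 1, 3 and 4. Every KO array, replicate 2 included, lay below every wild-type array, and Sqle fell 1.85-fold (log2 difference -0.88 ± 0.19, SE, adjusted p = 0.0484). This call rests on 1 probe set, dim among the members, and sits at the threshold. It held in 8 of 20 alternative fits, those without KO replicate 2 among them. Over the 20 fits, log2 differences lay between -0.98 and -0.73 and adjusted p between 0.0182 and 0.189. The call was lost with quantile normalization (adjusted p = 0.0507), with scaling by the array median (adjusted p = 0.0636), and when any array other than KO replicate 2 was left out.

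Fdft1, squalene synthase, the step before Sqle, read 1408, 1429, 2784 and 1454 in KO replicates 1 to 4, against 1047, 1060.2 and 876 in wild-type replicates 1, 3 and 4. All KO arrays lay above the wild-type arrays, and KO replicate 3 lay far above the other KO arrays. The difference did not pass (log2 difference 0.75 ± 0.22, SE, adjusted p = 0.118), and without KO replicate 3 it was 0.52 (adjusted p = 0.13). A second probe set of Fdft1 gave 0.66 (adjusted p = 0.0572, and 0.0286 without KO replicate 2), while the remaining pair was too dim to be tested. The log2 ratio of Fdft1 to Sqle, set to the wild-type mean, lay between 1.19 and 2.09 on the KO arrays and between -0.31 and 0.21 on the wild-type arrays. Neither gene overlapped between groups and their signs were opposite, so this separation was fixed beforehand and is not further support.

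From lanosterol on, the differences were smaller or rested on dim probe sets, as those of Mvk and Sqle also did. Dhcr7, the reductase of the last step to cholesterol, read 106, 123, 118 and 62.9 in KO replicates 1 to 4, against 171, 208 and 249 in wild-type replicates 1, 3 and 4, without overlap (log2 difference -0.86 ± 0.23, SE, adjusted p = 0.0976). Without KO replicate 2 its adjusted p was 0.0502. Nsdhl, a dehydrogenase of sterol demethylation, averaged 1296 ± 134 in KO and 1630.4 ± 113 in wild type, also without overlap (log2 difference -0.33 ± 0.12, SE, adjusted p = 0.195). Cyp51, the lanosterol demethylase, had a log2 difference of -0.43, and Sc5d, the desaturase before Dhcr7, one of -0.41, with -0.52 and -0.48 on its dimmer probe sets. Lss, lanosterol synthase (0.11), Hsd17b7 (0.12), Msmo1 (-0.11), Tm7sf2 (-0.08) and Ebp (-0.07), enzymes of ring closure and of the steps that follow, had overlapping groups and log2 differences near 0.

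The regulators of the sterol arm were less clear. Srebf2, the SREBP of sterol genes, averaged 642 ± 92.1 in KO and 764 ± 46.6 in wild type on its brightest probe set (log2 difference -0.25 ± 0.14, SE, adjusted p = 0.413). Its dimmer probe set read 256, 277, 216 and 243 in KO replicates 1 to 4, against 371, 489.8 and 441 in wild-type replicates 1, 3 and 4. There the KO arrays lay below the wild-type arrays and Srebf2 fell (log2 difference -0.73, adjusted p = 0.0484, and 0.0184 without KO replicate 2). The probe sets of Srebf2 therefore give different calls.

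Scap, which carries SREBPs to their proteases, had a log2 difference of 0.31 (adjusted p = 0.306). Insig1 and Insig2, which retain SCAP in the endoplasmic reticulum, were at 0.19 and 0.25, and the dimmer probe sets of Insig2 at -0.01 and 0.08. Stard4, a sterol carrier and SREBP target, was at -0.20. None of Scap, Insig1, Insig2 and Stard4 passed with all arrays or without KO replicate 2, and their groups overlapped.

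**Figure D3:**
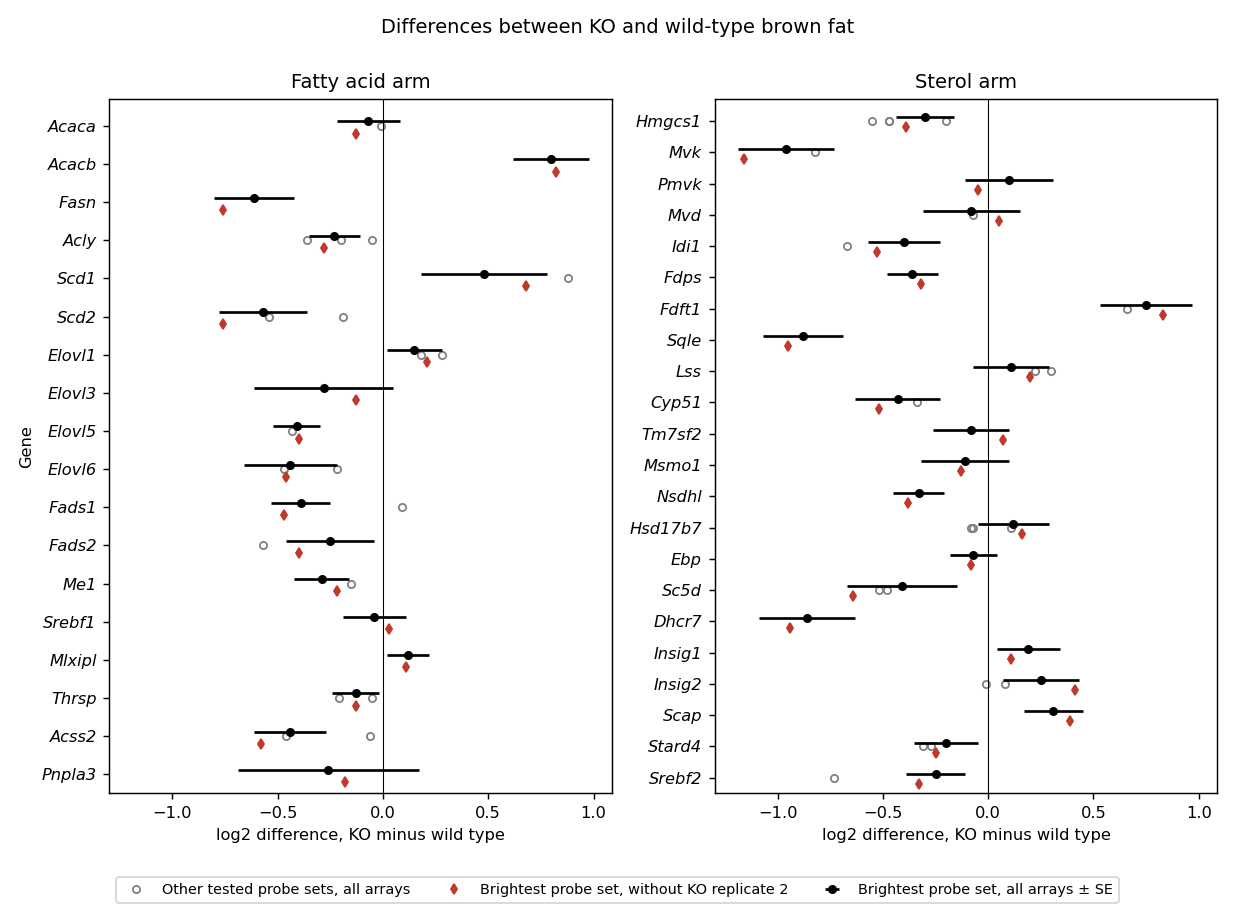
The x axis gives the log2 difference (KO minus wild type) of each gene, with black points and bars for the brightest probe set and its SE, grey circles for other tested probe sets and red diamonds for the fit without KO replicate 2. Sqle and Mvk lie furthest to the left of 0 with Dhcr7, Acacb and Fdft1 to the right, and the red diamonds of Mvk, Scd2 and Fasn lie further from 0 than the black points.

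Set against each other, the arms had medians close together. The median log2 difference over tested members was -0.16 in the sterol arm and -0.26 in the fatty acid arm, against -0.01 over all tested genes. The difference of the medians, sterol minus fatty acid, was 0.10 with all arrays and 0.01 without KO replicate 2. By array, relative to the wild-type mean, the sterol median was -0.15, -0.08, -0.32 and -0.19 on KO replicates 1 to 4, against 0, 0.01 and -0.06 on the wild-type arrays. The fatty acid median was -0.30, -0.13, -0.15 and -0.23 on the same KO arrays, against 0.14, -0.01 and -0.01 on the wild-type arrays. In both arms the KO medians lay below the wild-type medians, and which arm was lower changed from array to array. The sterol minus fatty acid median was 0.15, 0.06, -0.17 and 0.04 on the KO arrays and -0.14, 0.03 and -0.04 on the wild-type arrays.

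By count, 15 of 22 sterol genes (68.2%) and 14 of 18 fatty acid genes (77.8%) had a negative log2 difference, against 51.5% of all tested genes. In 5 sterol genes (22.7%) and 4 fatty acid genes (22.2%) all KO arrays lay below all wild-type arrays, against 8.37% of all genes. In 1 gene of each arm all lay above (4.55% and 5.56%, against 8.33% of all genes). Without KO replicate 2, 3 genes fell in each arm (13.6% of the sterol and 16.7% of the fatty acid genes, against 5.02% of all genes). Members share arrays and regulators and are not replicates, so no test was made over them.

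**Figure D4:**
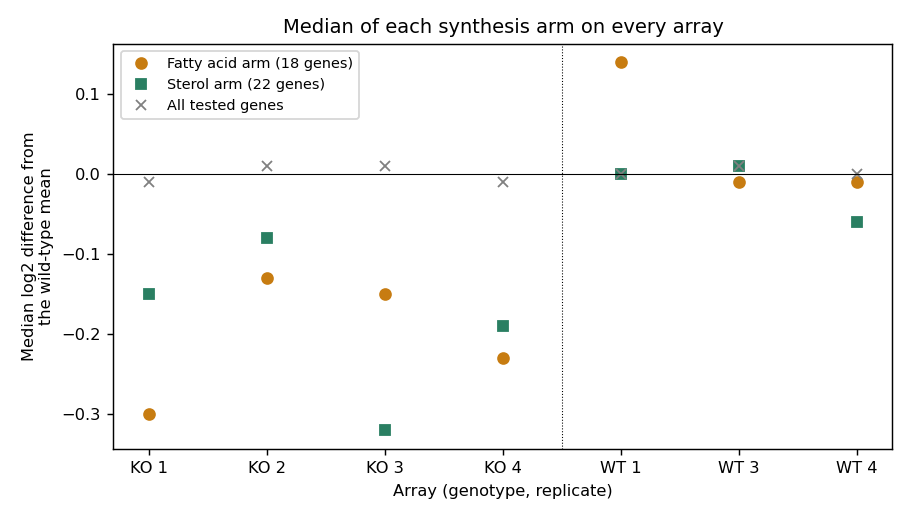
The y axis gives the median log2 difference from the wild-type mean over the tested genes of the fatty acid arm (circles), the sterol arm (squares) and all tested genes (crosses), for each array. Both arm medians lie below 0 on the 4 KO arrays, and all-gene medians lie within 0.01 of 0.

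Other genes around the route were read from lists chosen with results of these data known. Among 19 tested genes of SREBP processing and lipoprotein uptake, 3 rose and 0 fell, with all arrays and without KO replicate 2 alike. Of all genes 1.14% rose and 0.71% fell with all arrays, and 3.4% rose and 5.02% fell without KO replicate 2. Mylip, the ubiquitin ligase IDOL that removes lipoprotein receptors, read 4259.6, 2508, 3563 and 4352 in KO replicates 1 to 4, against 1866, 1844 and 2125 in wild-type replicates 1, 3 and 4. It rose 1.84-fold, without overlap (log2 difference 0.88 ± 0.18, adjusted p = 0.0403), and has 1 tested probe set. Lpin1, a phosphatidate phosphatase that also restrains nuclear SREBP, read 9849, 8153, 9611 and 10942 in KO replicates 1 to 4, against 6513, 6025 and 6779 in wild-type replicates 1, 3 and 4 (log2 difference 0.57 ± 0.11, adjusted p = 0.0393). The dimmer probe set of Lpin1 gave 0.49 and did not pass (adjusted p = 0.126). Vldlr, which takes up triglyceride-rich lipoproteins, rose 1.45-fold on its brightest of 6 tested probe sets, and the others did not pass.

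Among 25 regulators of carbohydrate response and acetyl-CoA carboxylase, 1 rose and 1 fell (1.14% and 0.71% of all genes), and without KO replicate 2, 2 rose and 3 fell (3.4% and 5.02% of all genes). Cop1, a ubiquitin ligase that acts with Tribbles proteins, read 3913, 3379, 4082 and 4449.5 in KO replicates 1 to 4, against 2517, 2589 and 2796 in wild-type replicates 1, 3 and 4 (log2 difference 0.58 ± 0.11, adjusted p = 0.0391). Trib1, a Tribbles adaptor of that ligase, read 64.1, 202, 197 and 225 in KO replicates 1 to 4, against 561, 673 and 498 in wild-type replicates 1, 3 and 4 (log2 difference -1.67 ± 0.31, adjusted p = 0.0332). Its other probe set gave -0.01. Of 14 genes of acetyl-CoA and NADPH supply 0 passed with all arrays (median -0.05). The smallest p belonged to Pgd and Rpia of the pentose phosphate pathway (log2 differences -0.45 and -0.39), and both fell without KO replicate 2, where 5.02% of all genes fell.

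Among 13 tested genes of cholesterol efflux and storage 0 passed (median 0.11), and 3 rose without KO replicate 2, where 3.4% of all genes rose. Cyp27a1, the sterol hydroxylase of mitochondria, read 1589, 1111, 1214 and 1053 in KO replicates 1 to 4, against 833, 599 and 733 in wild-type replicates 1, 3 and 4 (log2 difference 0.75 ± 0.17, adjusted p = 0.0521). Npc1, which exports cholesterol from lysosomes, averaged 499 in KO and 286 in wild type (log2 difference 0.74 ± 0.20, adjusted p = 0.0923). Both passed without KO replicate 2 (adjusted p = 0.0233 and 0.0143). Of 12 other enzymes of sterol, isoprenoid and fatty acid elongation steps 0 passed with all arrays (median -0.09), Ggps1 (0.28) and Hacd1 (0.29) having the smallest p, and Hacd1 rose without KO replicate 2 (3.4% of all genes rose).

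Of the marker lists, only the white fat list had summed signals that did not overlap between genotypes. The part of any list in these results was not tested. Of all tested genes, 1.85% changed with all arrays and 8.43% without KO replicate 2. White fat markers summed to 9898 to 15788 signal units in KO and 17018 to 19097 in wild type, with the KO maximum on replicate 2. Retn (mean 7062 in KO and 9704 in wild type) and Nnat (2697 and 6353) were the brightest and weigh most in this sum. Retn by itself overlapped between groups. With all arrays 5 of the 7 markers had negative log2 differences, while Agt (0.23) and Hoxc9 (0.33) had positive ones. Of 7 white fat markers 1 fell with all arrays (Nnat), where 0.71% of all genes fell. Without KO replicate 2, 4 fell (Nnat, Hoxc8, Lep and Retn), where 5.02% of all genes fell. Fibroblast markers summed to 44900.1 to 72486 in KO and 69341 to 78177 in wild type (median -0.31). Of 10 fibroblast markers 0 changed with all arrays. Without KO replicate 2, 3 fell (Fap, Lum and Mfap5, log2 differences -1.24, -1.17 and -0.54), the fit in which 6 members and 5.02% of all genes fell. Neutrophil markers summed to 6575 to 11406 in KO and 4555 to 7006 in wild type (median 0.60). Of 8 tested neutrophil markers 1 rose with all arrays (Chil3), where 1.14% of all genes rose. Without KO replicate 2, 3 rose (Chil3, Ngp and Lcn2), where 3.4% of all genes rose. Liver markers summed to 3764 to 14240.0 in KO and 2451 to 23295 in wild type. Of 6 tested liver markers 1 rose in both fits, Cyp2e1 (1.14% and 3.4% of all genes rose). The other 5 had negative log2 differences with all arrays (median of the list -0.55), and none of them passed in either fit. Brown fat markers overlapped (130437 to 164696 in KO and 134777 to 149862 in wild type, 0 of 12 changed in either fit), as did fat cell markers (141255 to 182099 in KO and 140075 to 164363 in wild type, 0 of 8 changed in either fit). In the macrophage, erythroid, endothelial, skeletal muscle and skin lists 0 of 10, 4, 10, 12 and 5 tested genes changed with all arrays, and their sums overlapped between genotypes. Without KO replicate 2, Lyz2 of the macrophage list rose (adjusted p = 0.0181), Tfrc of the erythroid list fell (adjusted p = 0.0441), and 0 genes of the other 3 lists changed. In that fit 3.4% of all genes rose and 5.02% fell. Of the 99 marker genes measured, 0 were at 0 on any array.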

How the data were processed

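Brown fat RNA had been labelled with biotin and hybridised at 1 sample per array, per the labels. The authors deposited 1 linear signal intensity for each probe set and array, scaled by a method not given in the sources used here. GCOS 1.2 appears among the tools of the submitters' processing notes. The mean after trimming 2% at each end was 500.0 on all 7 arrays, so this scaling was kept. No detection calls were used. Of 45101 probe sets, 64 controls were left out. The probe table gave 1 symbol for 34945, several for 932 and none for 9160, and symbols were updated by gene identifier (RefSeq, GRCm38.p6).

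Before log2 was taken, 30.6 (the 20th percentile of all values) was added to each signal. Probe sets under the 40th percentile of mean log2 over all 7 arrays were left out, which left 27022. The 4 KO arrays were set against the 3 wild-type arrays in a two-sided limma fit without covariates (version 3.58.1, R 4.3.3, moderated with an intensity trend), with Benjamini-Hochberg adjustment over all tested probe sets and a threshold of 0.05. A gene was read by its brightest probe set. On arrays of this kind, probe sets ending in _x_at or _s_at can also bind other transcripts. Here these were the brightest of Elovl5 and Lss among members, and of Vldlr and Pgd among other genes of the route named above. All members were named, and genes of other lists if they passed or had the smallest p. Members and lists were chosen with earlier results of these data known. Changes were also placed in simulated data with 4 against 3 arrays and 27022 probe sets. The fit recovered 66% of 50 log2 rises of 1, 51.3% of 39 falls of 1 and 92% of 50 rises of 2, with 7 false calls. Only falls that passed the low-signal filter are counted, so the share of all placed falls was lower. The number of arrays limits the precision. Alternatives were other scalings, offsets, filters and variance models, array weights, gene means, the deposit block and leaving out each array. A further one took the replicate number as a block, without KO replicate 2.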

Additional observations from a re-analysis of the deposited data

Results flagged for a closer look

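In 3 of the 40 measured members, 1 KO array lay far from the other 3 (Dixon's gap test at the 95% level, applied to the KO group only, and by chance about 1 group in 20 is so marked). Fdft1 read 2784 on KO replicate 3 and 1408 to 1454 on the other KO arrays. Hsd17b7 read 679 on KO replicate 1 and 466 to 480.0 on the others. Fads1 read 594 on KO replicate 2 and 465 to 479.9 on the others, the side on which the wild-type arrays lie.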

How the results depend on the processing

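Over 21 alternatives, 28 of the 40 members kept the sign of their log2 difference in every one of them and 12 turned. In 27 cases a member passed that had not passed with all arrays, and in 13 the call of Sqle was lost. Most of the 27 came from fits that leave out KO replicate 2. In these 7 members passed with no block, 8 with the deposit block and 8 with the replicate block. Calls gained in that way are not further support. The count of members that passed, 1 with all arrays, was 0 with quantile normalization, scaling by the array median, an offset of 10, no filter, a variance without trend, or within deposit block 1 alone. It was 2 with a filter at the 60th percentile, 4 with array weights, 3 with the deposit block as a covariate, 8 with that block and without KO replicate 2 (an alternative chosen after seeing the data), and 0 to 7 when 1 array was left out (7 without KO replicate 2, 0 without any other single array). The count of all probe sets that passed, 431, was 235 with median scaling, 100 without a filter, 6 without a trend, 1312 with array weights, 726 within deposit block 2, 0 within block 1, 252 with gene means, 2330 with the deposit block and without KO replicate 2, and 7 to 1986 when 1 array was left out. The 0 within block 1 come from a fit with 1 wild-type array.

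The median of the fatty acid arm lay between -0.28 and -0.16 and that of the sterol arm between -0.25 and -0.16 when 1 array was left out (lowest absolute value of the fatty acid median without KO replicate 1, lowest sterol median without wild-type replicate 1). Within deposit block 2 the sterol median was -0.29 and the sterol minus fatty acid median -0.03. With 1 array left out, that difference ran from -0.02 to 0.10.

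Sample numbers 1, 3 and 4 are shared by both groups, but the labels do not say that they pair samples, and the correlations of same-numbered deviations were 0.06, 0.16 and 0.11. Each of these KO arrays correlated best with the wild-type array of its own number, while wild-type replicate 1 correlated best with KO replicate 2 (0.16). With the replicate number as a block, 8 members and 2173 probe sets passed. That fit also leaves out KO replicate 2, and leaving out that array without a block already gave 7 members. The rise from 1 member can therefore not be credited to the block.

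The turned values, none of which passed in either fit, were as follows. With the replicate block they were 0.03 for Srebf1, -0.05 for Pmvk, 0.05 for Mvd and 0.07 for Tm7sf2, and without KO replicate 2, with or without the deposit block, the same to 2 decimals. Srebf1 was 0.01 with the deposit block as a covariate, 0.04 without KO replicate 1 and 0.03 without wild-type replicate 4. Within block 2 the values were 0.23 for Elovl3, 0.15 for Srebf1, 0.03 for Mvd, -0.08 for Lss, 0.10 for Tm7sf2 and -0.07 for Hsd17b7. Within block 1 they were -0.34 for Scd1, 0.54 for Pnpla3, -0.15 for Pmvk, 0.32 for Msmo1 and 0.04 for Stard4. Lss was -0.02 and Hsd17b7 -0.01 without KO replicate 1. Without wild-type replicate 1, Elovl3 was 0.13 and Lss -0.03. Without wild-type replicate 3, Acaca was 0.01, Pmvk -0.02, Mvd 0.11 and Msmo1 0.10, and Pnpla3 was 0.37 without wild-type replicate 4. With 1 array left out, the ends of the range on the other side were -0.22 for Acaca, -0.71 for Elovl3, -0.81 for Pnpla3, 0.22 for Lss and 0.24 for Hsd17b7. The cause of these changes was not tested.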
